A study of Mus musculus with 10 samples.

Results

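The AVPV-higher regions were sites of estrogen receptor alpha (ERα) binding that were called in every library and ranked higher in the anteroventral periventricular nucleus (AVPV) than in the arcuate nucleus. Peaks of 8 ERα ChIP-seq libraries, 4 from each nucleus, were merged where they shared at least 1 bp, and 1089 of the 8072 merged regions held a peak in all 8 libraries (core regions). Within each library the highest fold enrichment over a core region was turned into a percentile from 0 to 100 among the 1089. A region was a member when its mean percentile in the AVPV libraries exceeded its mean in the arcuate libraries by 10 points or more, and 305 core regions did so (28.0%). Members were thus selected on fold enrichment, and its difference between the nuclei is described here with no test. The mirrored rule gave 293 arcuate-higher regions, and the remaining 491 are called other core regions.

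The tissue was the arcuate nucleus and the AVPV dissected from female C57BL/6 mice. All animals were ovariectomised, carried a 2 cm subcutaneous implant of 17β-estradiol at 0.1 mg/mL, and received estradiol benzoate at 0.05 mg/kg, with tissue taken 28 h after that injection. Both groups therefore shared the same steroid treatment, and no vehicle-treated group was analysed here. Chromatin was pooled, and no label ties a library to its own animals, so the spread between the 4 libraries of a nucleus, and any p-value from it, may be partly technical. Each arcuate library had 3251 to 4079 peaks and each AVPV library 2367 to 3347. Peak lists carry no read counts and no expression markers, so the depth behind each value is unknown and the label of each nucleus could not be checked against marker genes. A core region in an intron of Greb1, an established ERα target, stood at percentile 90.9 to 98.3 in all 8 libraries, while a second Greb1 core region was arcuate-higher, with mean percentiles of 81.2 in the arcuate and 15.1 in the AVPV libraries. In dissected tissue, fewer cells with ERα and less binding per cell cannot be told apart.

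ERα is a nuclear receptor that estradiol turns into an active transcription factor. It binds DNA directly at the estrogen response element (ERE), a palindrome of paired AGGTCA arms, or reaches DNA through other factors at sites without one, including promoters. In the female hypothalamus, kisspeptin neurons of the AVPV are associated with positive feedback by estrogen before ovulation, and those of the arcuate nucleus with negative feedback.

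The sequences of 7 members show the element at which ERα can bind directly. The search pattern was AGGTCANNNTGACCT, read on both strands within 100 bp of the median peak summit, and an element was counted with at most 2 mismatches in the 12 fixed bases. The first sequence belongs to the member with the largest difference between the nuclei, and the other 6 have the largest differences among members with at most 1 mismatch. Each is given 5′ to 3′ on the plus strand of mm10, with the 15 bases of the element in capitals and 20 bases on either side. They lie at chr10:99159169-99159223 (Galnt4, in an intron of Poc1b), chr15:34730632-34730686 (intergenic, nearest to Nipal2), chr12:37909662-37909716 (intron of Dgkb), chr4:139131164-139131218 (promoter of Micos10), chr6:135959061-135959115 (intron of Grin2b), chr1:182563834-182563888 (intergenic, nearest to Capn8) and chr7:133900315-133900369 (intron of Adam12, nearest to the start site of Dhx32).
Galnt4: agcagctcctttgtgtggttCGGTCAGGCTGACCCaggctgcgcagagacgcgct
Nipal2: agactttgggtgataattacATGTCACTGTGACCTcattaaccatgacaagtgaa
Dgkb: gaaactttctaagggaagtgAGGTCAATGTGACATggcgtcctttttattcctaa
Micos10: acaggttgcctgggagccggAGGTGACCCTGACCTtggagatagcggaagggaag
Grin2b: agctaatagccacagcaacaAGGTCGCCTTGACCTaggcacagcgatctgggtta
Capn8: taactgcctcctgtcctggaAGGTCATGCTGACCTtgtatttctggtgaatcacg
Dhx32: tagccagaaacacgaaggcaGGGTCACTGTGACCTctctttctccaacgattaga

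With positions counted from 1 at the 5′ end of the palindrome and the palindrome's base given first, the Capn8 element matched all 12 fixed bases. The others departed from it by A1C and T15C near Galnt4, G2T near Nipal2, C14A in Dgkb, C5G at Micos10, A6G in Grin2b and A1G in Adam12. In 6 of the 7 the centre of the element lay within 10 bp of the median summit, and at Micos10 it lay 33 bp away.

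Promoters without such an element were the more frequent kind of member, and the 3 non-divergent promoters with the largest differences are shown for contrast. Each run is the 150 bases before the RefSeq start site on the strand of the gene (GRCm38), at chr11:102156408-102156557 for Tmem101, chr2:165493315-165493464 for Trp53rka and chr11:71004433-71004582 for Dhx33. Capitals mark matches on either strand to the 14 short motifs that were searched.
Tmem101: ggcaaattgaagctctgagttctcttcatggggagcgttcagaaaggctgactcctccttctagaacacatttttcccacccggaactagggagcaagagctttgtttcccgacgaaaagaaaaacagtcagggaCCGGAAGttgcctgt
Trp53rka: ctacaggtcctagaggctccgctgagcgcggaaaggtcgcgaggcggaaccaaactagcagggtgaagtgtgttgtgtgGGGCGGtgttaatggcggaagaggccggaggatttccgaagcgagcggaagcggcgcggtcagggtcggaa
Dhx33: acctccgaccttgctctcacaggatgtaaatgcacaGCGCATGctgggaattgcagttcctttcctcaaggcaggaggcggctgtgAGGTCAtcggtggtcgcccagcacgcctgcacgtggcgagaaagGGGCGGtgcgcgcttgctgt

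The Tmem101 promoter held 1 match to the ETS motif CCGGAAG, a motif found in 5.52% of the 150 bases before 32851 RefSeq start sites. In a different window, within 100 bp of the summit, it was found in 38.6% of the promoters among the members. The share was 58.2% in arcuate-higher promoters and 41.2% in other core promoters, so the motif was not particular to members. The Trp53rka promoter held a GC box (GGGCGG, 28.6% of start sites). The Dhx33 promoter held a GC box, the ERE arm AGGTCA (8.58%) and the NRF1 core GCGCATG (2.496%). These matches describe the letters only. None of the 3 promoters had an ERE with at most 2 mismatches within 100 bp of its summit, which lay 23 bp after the start site of Tmem101, 77 bp before that of Trp53rka and 159 bp before that of Dhx33.

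Across the 305 members the difference in mean percentile ran from 10.04 to 68.5 points, with a median of 19.7. It was under 20 points in 156 members, from 20 to 40 in 117 and 40 or more in 32. On the scale of fold enrichment itself, the mean over the AVPV libraries was 1.34 times the mean over the arcuate libraries in the median member (range 1.08 to 2.69), against 0.985 over all core regions. The percentiles of the 4 AVPV libraries all lay above those of the 4 arcuate libraries in 108 members, and in 123 of all core regions (11.3%). Because members were selected on these same percentiles, nothing is read from that count. A peak in every library was part of the rule, so members could differ only in degree. In 23 members all 4 AVPV percentiles exceeded 50 while all 4 arcuate percentiles were below it. That count, too, comes from the percentiles that chose the members, has no value over all core regions beside it, and nothing is read from it.

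**Figure D1:**
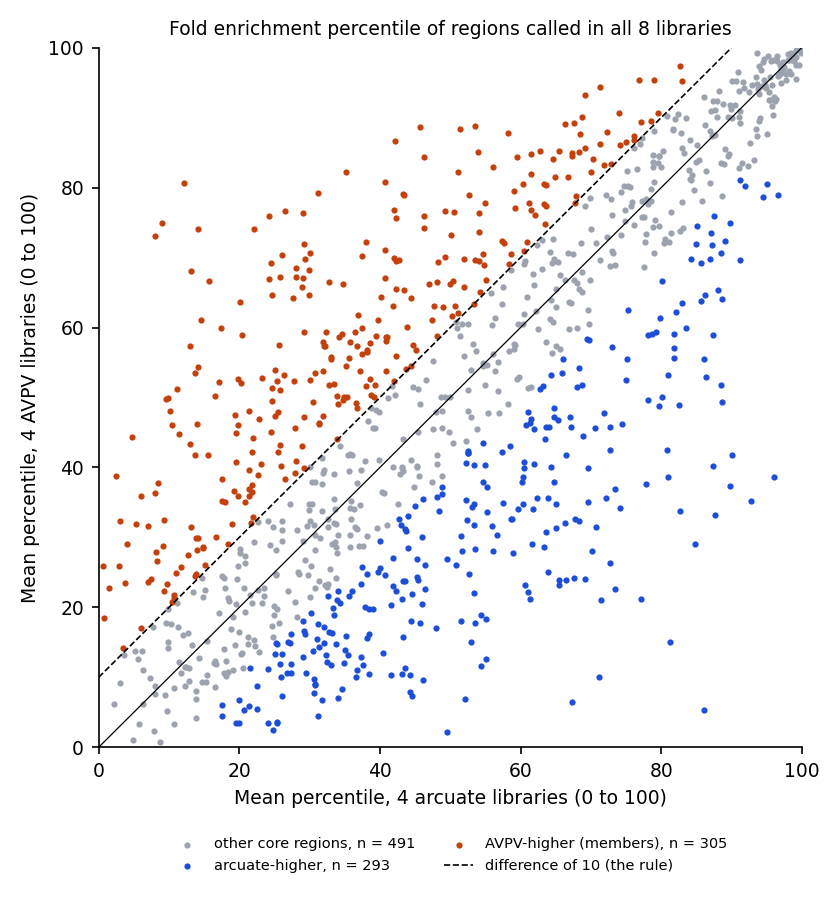
Mean percentile of fold enrichment over the 4 arcuate libraries (x axis, 0 to 100) and the 4 AVPV libraries (y axis, 0 to 100), with 1 point for each of the 1089 core regions; the dashed line is the difference of 10 that defines the members and the solid line is equality. The 305 members spread from a mean percentile over all 8 libraries of 8.78 to 90.03, and few lie far above the dashed line at the top, where a percentile cannot exceed 100.

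The member with the largest difference lay in an intron of Poc1b, 51.1 kb downstream of the start site of Galnt4, which encodes an enzyme that starts mucin-type O-glycosylation. Its percentiles were 12.1, 21.3, 12.2 and 3.03 in arcuate libraries 1 to 4 and 86.3, 85.7, 65.9 and 84.7 in AVPV libraries 1 to 4. The groups did not overlap, and AVPV library 3 was the lowest of its group. Mean fold enrichment was 5.95 in the arcuate libraries and 16.02 in the AVPV libraries, a ratio of 2.69.

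The Tmem101 promoter came next. It stood at percentiles 20.7, 7.81, 5.38 and 2.21 in the arcuate libraries and 75.7, 65.6, 77.7 and 80.6 in the AVPV libraries. All AVPV values lay far above the arcuate ones. An intronic region 348 bp inside Slc29a2, the gene of a nucleoside transporter, followed, with percentiles of 15.2, 4.64, 3.401 and 8.59 in the arcuate libraries and 79.0, 74.4, 71.9 and 67.0 in the AVPV libraries. Its groups were also fully apart, with a mean difference of 65.1 points.

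Of the 10 largest, 7 were promoters. The Dhx33 promoter (a DEAH-box RNA helicase) had percentiles of 31.5, 7.67, 8.18 and 5.01 in the arcuate libraries and 84.9, 60.4, 52.2 and 74.6 in the AVPV libraries. Arcuate library 1 stood well above the other arcuate libraries there, yet below every AVPV library. The promoters of Trp53rka (a protein kinase), Rexo2 (an RNA exonuclease) and Dcp1a (an mRNA decapping factor) differed by 60.0, 51.8 and 51.0 points. The Iftap promoter, of an intraflagellar transport associated protein, differed by 50.1 points but had the widest arcuate spread, from 8.59 to 59.7. The tenth was a promoter shared by 4930455D15Rik and Wdr36, a ribosome biogenesis gene, at 48.1 points. The intergenic region 52.1 kb upstream of Nipal2, whose element is printed above, completed the set with 52.0 points. All 10 were without overlap because that was a condition for naming them.

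**Figure D2:**
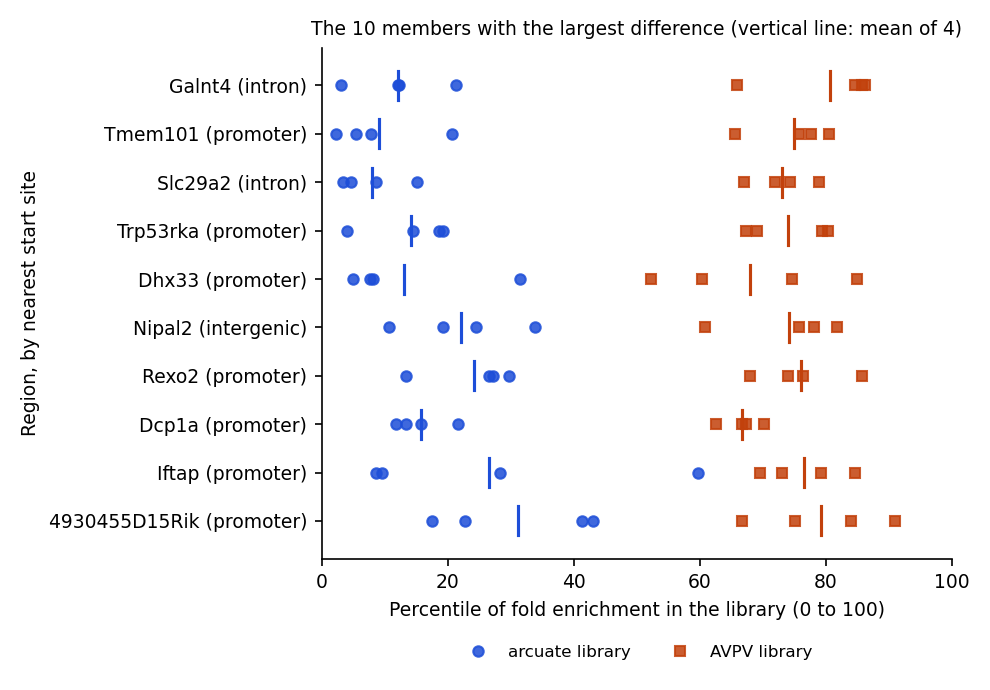
Percentile of fold enrichment in each library (x axis, 0 to 100) for the 10 members with the largest difference (y axis, named by nearest start site and class), with circles for the 4 arcuate libraries, squares for the 4 AVPV libraries and a vertical line at each mean. Arcuate values stay at or below 59.7 and AVPV values at or above 52.2 over the 10 regions, and the Iftap promoter has the most scattered arcuate values.

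At the edge of the rule, the last members inside were an intergenic region 61.8 kb upstream of Pgr, the progesterone receptor gene (10.10 points), the promoter of Slc39a13, a zinc transporter gene (10.09), and an intergenic region nearest to 1700016G22Rik (10.04). The first regions outside were the promoter of Ndufaf1 (9.995), an intron of Pcmtd1 (9.96) and the promoter of Gtse1 (9.95). The Pgr region stood at 55.3, 28.9, 50 and 43.6 in the arcuate libraries and 49.8, 54.6, 29.0 and 84.7 in the AVPV libraries. Its place among the members rested on AVPV library 4 alone, since the other 3 AVPV values lay inside the arcuate range.

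Mean AVPV percentile exceeded 90 in 9 members, which are named here after their values were seen. They included the promoters of Pih1d2, Cstf2t (an mRNA 3′ end processing factor), Ints12 (an Integrator subunit) and Usp30 (a mitochondrial deubiquitinase), a UTR region of Aldh18a1 (proline synthesis) and an exon region of Pgap4. The other 3 lay nearest to Gsg1l, Gm10823 and Gm31333. At Pih1d2 the percentiles were 79.5, 84.0, 82.6 and 84.6 in the arcuate libraries and 96.8, 97.4, 97.3 and 98.1 in the AVPV libraries. That difference of only 14.7 points went with mean fold enrichments of 16.5 and 34.8, a ratio of 2.10. Rank differences therefore understate differences in fold enrichment among the strongest regions.

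The difference was also measured in libraries whose percentiles were not used to choose. For this, 1 library of each nucleus was left out, regions were chosen with the other 6, and the left-out pair was measured. In the 16 rounds 291 to 321 regions were chosen, and their median difference in the left-out pair was 10.1 to 19.8 points (median of rounds 15.8). Between 63.2% and 84.1% of the chosen regions were higher in the left-out AVPV library. Other core regions had medians of -1.24 to 0.988 points in the left-out pairs, and arcuate-higher regions -20.4 to -10.7. The rounds share libraries, so no p-value is attached. A core region needed a peak in all 8 libraries, so the left-out pair still had a part in setting the regions. With pooled chromatin, that pair may also not be independent of the other 6 libraries.

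Position in the genome was not used by the rule and could be compared. Of the 305 members, 140 were promoters, taken as 1 kb before to 100 bp after a start site at the region's centre (45.9%, 95% Wilson interval 40.4 to 51.5). A further 86 were intronic, 56 intergenic, 13 in UTRs, 7 in exons and 3 at transcription termination sites. Promoters made up 27.0% of the arcuate-higher regions (79 of 293) and 50.9% of the other core regions (250 of 491). Over all 1089 core regions the share was 43.1%. The share in members was 18.9 points above that in arcuate-higher regions (95% interval 11.3 to 26.3, adjusted p = 5.55e-06, two-sided Fisher's exact test, 6 comparisons). Against the other core regions the difference was -5.01 points (interval -12.1 to 2.12, adjusted p = 0.189, Fisher's exact test). As in every Fisher's exact test here, regions count as independent and the spread between libraries is left out. Taken over libraries, the promoter contrast between the nuclei did not pass, as given below. The median distance from a member's centre to the nearest start site was 217 bp, against 8343 bp in arcuate-higher regions and 198 bp in other core regions. The share in members thus lay near that of the whole core, and the low share was that of the arcuate-higher regions.

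In promoter members the median summit was within 200 bp of the nearest start site in 126 of the 140, and 33 were divergent promoters with start sites on both strands. CpG-island-like sequence, with over 50% G and C and an observed to expected CpG ratio above 0.6 around the summit, was found at 112 of the 140 (80%), and 3 of the 140 held an ERE (2.14%). Over all 469 core promoters these shares were 81.9% and 4.26%, and 95 of the 469 were divergent. An ERE was found at 10 of 79 arcuate-higher promoters (12.7%) and 7 of 250 other core promoters (2.8%). The contrast within promoters was not tested. The shared promoter of Uqcr10, a subunit of respiratory complex III, and Zmat5 was among the divergent ones, with arcuate percentiles of 26.5, 0.827, 11.2 and 13.4 and AVPV percentiles of 71.1, 59.5, 56.3 and 42.2. The AVPV values were all above the arcuate values.

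Over all classes, 155 of the 305 members were CpG-island-like (50.8%), against 37.9% of arcuate-higher, 59.1% of other core and 51.1% of all core regions. The difference was 12.9 points from the former (adjusted p = 0.00349, Fisher's exact test) and -8.24 points from the latter (adjusted p = 0.0413, Fisher's exact test). Both calls depended on single libraries. The first was lost without arcuate library 1 (-1.07 points), arcuate library 2 (5.57) or AVPV library 3 (2.48), and the second without arcuate library 4 (-1.07), AVPV library 1 (-7.54), AVPV library 2 (-7.57) or AVPV library 4 (-4.29).

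The ERE was present in 94 of the 305 members (30.8%, Wilson interval 25.9 to 36.2). It matched the palindrome fully in 10, with 1 mismatch in 41 and with 2 in 43. The same search in windows moved by 5 kb found it at 1.97% of members. The element was found in 50.2% of arcuate-higher regions, 24.8% of other core regions and 33.3% of all core regions. Members were 19.4 points below the arcuate-higher regions (interval of the difference -26.9 to -11.5, adjusted p = 5.55e-06, Fisher's exact test). The difference from other core regions was 5.97 points (interval -0.371 to 12.5, adjusted p = 0.0857, Fisher's exact test). These tests also leave out the spread between libraries, over which the ERE contrast between the nuclei did not pass (below).

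Outside promoters the element was found in 91 of 165 members (55.2%) and 137 of 214 arcuate-higher regions (64.0%), a difference of -8.87 points that did not pass (adjusted p = 0.272, Fisher's exact test). With at most 1 mismatch the difference over all regions was -6.83 points (adjusted p = 0.0618, Fisher's exact test). Intronic and intergenic members held an ERE match in 89 of 142 cases (62.7%), close to the 64.4% of all 509 intronic and intergenic core regions.

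**Figure D3:**
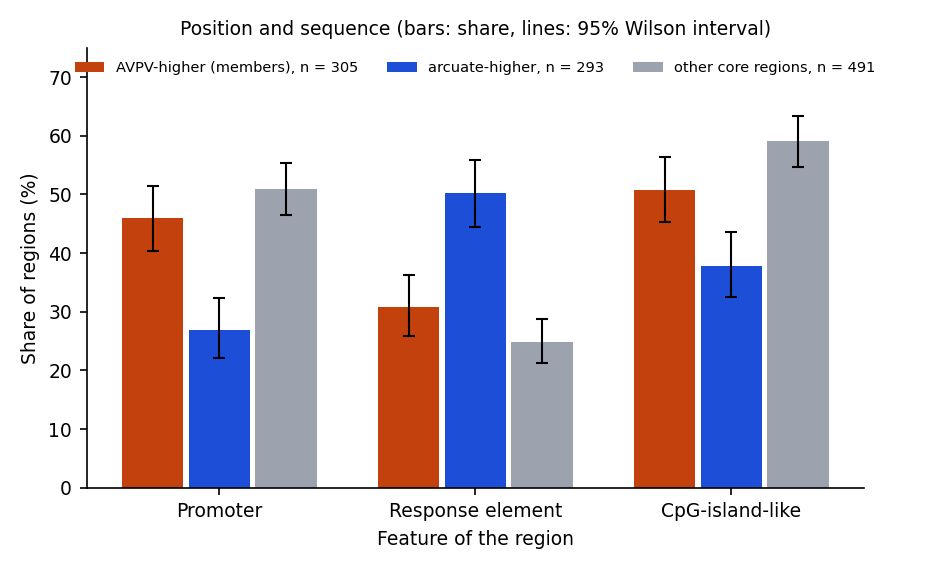
Share of regions (y axis, %) that were promoters, held an ERE with at most 2 mismatches, or were CpG-island-like (x axis), in the 305 members, the 293 arcuate-higher and the 491 other core regions, with 95% Wilson intervals. For promoters the members reach 45.9% against 27.0% in arcuate-higher regions, and for the ERE 30.8% against 50.2%.

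Where an element was present it lay at the peak. The median distance from its centre to the median summit was 11 bp, and it was within 25 bp in 77 of the 94 members. The median summits of the arcuate and the AVPV libraries were within 50 bp of each other in 283 of the 305 members (92.8%), with a median shift of 15 bp. Over all core regions the share was 91.5% with the same median shift.

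**Figure D4:**
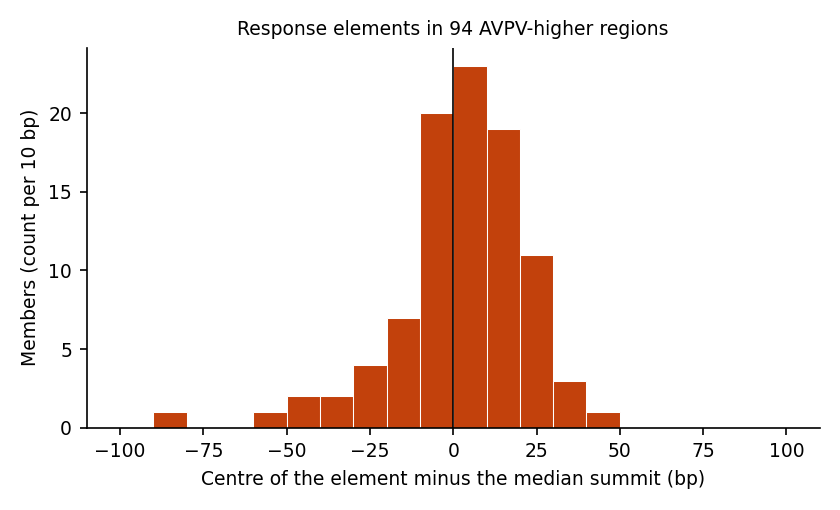
Distance from the centre of the best ERE to the median summit (x axis, bp) in the 94 members that held one (y axis, members per 10 bp). The elements gather around 0, with 77 of 94 within 25 bp.

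Of the 51 members with an element of at most 1 mismatch, 49 were intronic or intergenic. The same held for 170 of the 186 such regions in the whole core, so this is not particular to the members. The region in Grin2b, which encodes an NMDA receptor subunit, lay 214 kb from the start site, with percentiles of 29.3, 42.1, 21.7 and 27.2 in the arcuate libraries and 62.1, 77.2, 70.6 and 72.9 in the AVPV libraries. The intronic region of Dgkb, a diacylglycerol kinase gene, had 46.9, 14.2, 21.7 and 33.4 in the arcuate libraries and 72.8, 81.8, 70.1 and 80.6 in the AVPV libraries. Neither had overlapping groups. The region 1219 bp upstream of Capn8, a calpain gene, carried the full palindrome and was weak in the arcuate libraries.

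At Capn8 the arcuate percentiles were 4.96, 1.65, 1.52 and 1.70 and the AVPV percentiles 36.7, 43.9, 27.9 and 46.6. Its fold enrichment averaged 4.38 and 8.50, so a perfect element did not go with a high rank in either nucleus. Near Nipal2 the percentiles were 19.3, 33.9, 24.4 and 10.7 in the arcuate libraries and 75.7, 81.8, 60.8 and 78.1 in the AVPV libraries. In the Adam12 intron the groups overlapped, because arcuate library 1 reached 68.1 while AVPV library 3 stood at 56.3. The Micos10 promoter, of a protein that shapes mitochondrial cristae, was the only promoter among these 6, with arcuate values of 7.58 to 31.1 and AVPV values of 49.9 to 64.4.

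To ask whether the contrast in class composition held over libraries and not only over regions, the mean percentile of all 469 promoter core regions and of all 363 core regions with an ERE was taken in each library. These classes were set without fold enrichment. Promoter regions averaged 51.3 ± 3.76 in the arcuate and 55.2 ± 3.01 in the AVPV libraries (SD, n = 4 each), a difference of 3.88 points (exact two-sided permutation p = 0.200, adjusted over 2 tests 0.257, smallest possible p 0.0286). ERE regions averaged 50.4 ± 6.36 and 45.7 ± 4.42, a difference of -4.79 points (exact permutation p = 0.257, adjusted 0.257). Neither difference passed the test, and libraries of the 2 nuclei overlapped in both classes.

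Arcuate library 4 and AVPV library 4 stood on the side of the other nucleus. For promoter regions arcuate library 4 was at 56.3 and AVPV library 4 at 51.1, and for ERE regions they were at 41.8 and 51.1. Fisher's exact tests over regions treat regions as independent and do not include this spread. Without arcuate library 4 the gap in promoter share between members and arcuate-higher regions was 29.9 points, and without arcuate library 1 it was 10.5 points (adjusted p = 0.0195, Fisher's exact test). The ERE gap moved likewise, to -32.7 points without arcuate library 4 and -10.6 points without arcuate library 1 (adjusted p = 0.0195, Fisher's exact test).

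**Figure D5:**
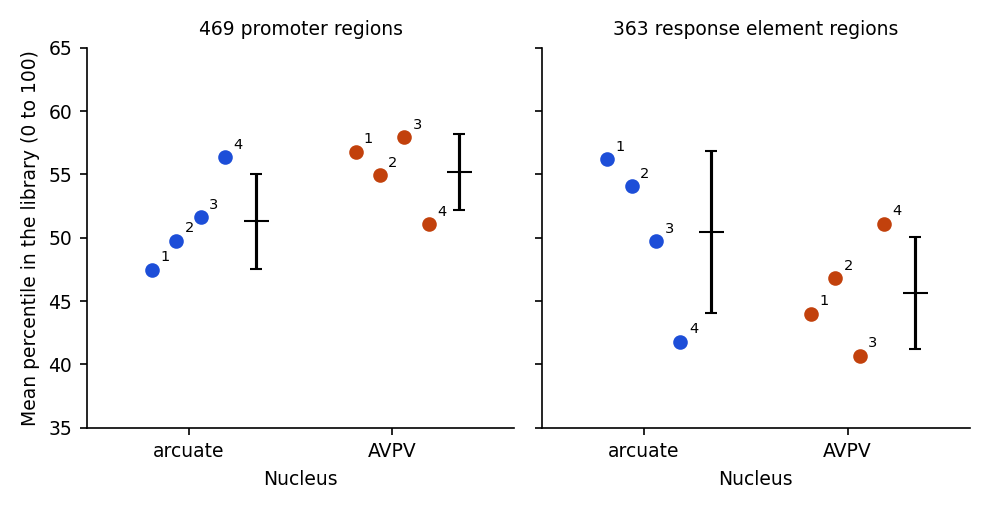
Mean percentile in each library (y axis, 0 to 100, shown from 35 to 65) of the 469 promoter core regions and the 363 core regions with an ERE, by nucleus (x axis), with the library number beside each point and the mean ± SD (n = 4) at the right. The nuclei overlap in both panels, with library 4 of each nucleus on the side of the other.

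Of 14 motifs compared between members and arcuate-higher regions within 100 bp of the summit on both strands, 4 passed with Benjamini-Hochberg adjustment. The ERE arm AGGTCA, which is part of the palindrome, was found in 30.2% against 42.7% (adjusted p = 0.023, Fisher's exact test) and in 32.0% of all core regions. CAGCTG, a form of E-box, was found in 7.54% against 14.3% (11.5% of all core regions), the GC box GGGCGG in 26.2% against 17.7% (23.8%), and CCAAT in 24.9% against 16.4% (18.9%; adjusted p = 0.0479 each, Fisher's exact test). CCAAT was more frequent in members both in promoters (23.6% against 17.7%) and outside them (26.1% against 15.9%), and the GC box shares were 40% against 38.0% in promoters and 14.5% against 10.3% outside them. The ERE arm was found in 5.71% against 15.2% in promoters and in 50.9% against 52.8% outside them. For CAGCTG the shares were 5.71% against 7.59% in promoters and 9.09% against 16.8% outside them. Leaving out single libraries gave between 0 and 4 motifs that passed, with none without arcuate library 2 or AVPV library 3. Without arcuate library 1 the gap of the ERE arm was -3.65 points (adjusted p = 0.779, Fisher's exact test).

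Genes near members were grouped by 14 lists, counting a region when its nearest start site was within 20 kb. The lists were matched to the gene symbol of the nearest start site only and were not complete. The Micos10 promoter, of a mitochondrial protein, was on none of them, so each count below covers listed genes only. Genes of translation and the mitochondrion had 29 core regions, of which 10 were members (34.5%, against 28.0% of all core regions) and 4 were arcuate-higher, with a median difference of 5.49 points. They included Uqcr10 (44.3 points), the mitochondrial ribosomal genes Mrpl1 (40.2), Mrpl16 (26.9), Mrpl20 (18.3) and Mrpl30 (17.2), and the initiation factor genes Eif4g2 (36.9), Eif3f (26.9) and Eif3m (20.8). Timm13 (19.7), of mitochondrial protein import, and Ndufa12 (17.8), of respiratory complex I, completed the list. At the Eif4g2 promoter the percentiles were 39.0, 46.3, 62.6 and 57.9 in the arcuate libraries and 94.3, 88.3, 93.7 and 77.0 in the AVPV libraries. These groups did not overlap, whereas the Eif3f and Eif3m promoters had overlapping groups.

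The other housekeeping lists were divided between directions. Ribosomal and proteasome genes had 19 core regions with 5 members and 5 arcuate-higher regions. The members were Rps26 (36.5 points), Rps7 (17.2), Psma6 (27.0), a proteasome core subunit, and the proteasome assembly chaperones Psmg1 (27.2) and Psmg3 (19.3). Listed splicing and RNA-binding genes had 3 members of 13 core regions (Dhx33, Ddx56 at 43.5 points and Ddx1 at 14.5) and 3 arcuate-higher regions. The member nearest to Snrnp200 (43.0 points) was on none of the lists. Vesicle and membrane trafficking genes had 5 members of 24, with 6 arcuate-higher regions. These 5 were Rab33b (25.4 points), Ap3s2 (21.5), Vps26c (19.6), Sec22b (11.9) and Vps25 (10.5). Shares of 20.8% to 34.5% in the 4 larger lists lay around the 28.0% of all core regions.

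The remaining lists had few core regions at this distance. The promoter of Nr1h2, which encodes the liver X receptor beta, was the single core region of the nuclear receptor list. It was a member by 12.5 points with overlapping groups. No member lay within 20 kb of a listed estrogen receptor coregulator (3 core regions), estrogen target of breast and uterus (3), activity-induced factor (2), hypothalamic peptide or transmitter enzyme (1), calcium, sodium, HCN or TRP channel (3), or glutamate or GABA receptor (1). The circadian clock and homeobox lists had no core region. The Grin2b and Pgr members were beyond 20 kb of their start sites and are not in these counts.

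Members were spread over the chromosomes, with no pair closer than 20 kb. Chromosome X held 3 of them, among them the promoter of Ogt, the O-GlcNAc transferase gene, at 10.6 points. The promoter of Erdr1, a pseudoautosomal gene that the assembly places on chromosome Y, was a member by 17.8 points with overlapping groups, although the animals were female. Soft-masked repeats covered at least 50% of the summit window in 3 members, 0.984% of the set, against 1.01% of all core regions. Median width was 650 bp, against 618 bp in arcuate-higher and 699 bp in other core regions.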

How the data were processed

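ERα ChIP-seq peak lists of 4 arcuate and 4 AVPV libraries were used, and the 2 pooled input libraries were not analysed here. Per the labels and methods, the authors aligned 75-nt single-end reads to mm10 with Bowtie2 2.5.0 and called peaks in each library with MACS2 2.2.7.1 at a false discovery rate of 5%. Whether input served as the control is not given in the sources used here. The deposited lists give each peak a fold enrichment (a ratio of summit pileup to local background), −log10 p-values and q-values, and a display score, which was not used. Fold enrichment also depends on the depth and background of its library, which the within-library percentile removes only in part.

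Members and gene lists were chosen with earlier results of these data known. The centre of each region was placed against 45756 RefSeq transcripts (GRCm38.p6), and sequence was read from the same assembly around the median of the 8 libraries' summits. Named regions were the 10 largest differences without overlap, the 3 regions on each side of the threshold, up to 15 members within 20 kb of a listed gene and the 6 largest with an ERE of at most 1 mismatch. One region near a listed gene is not reported here. Other list members and those with mean AVPV percentiles above 90 were named after their values were seen. Shares were compared by Fisher's exact test with Benjamini-Hochberg adjustment, and class means over libraries by exact permutation over 70 assignments, with Python 3.11.15, scipy 1.17.1 and statsmodels 0.14.6. Intervals for shares were Wilson's and for their differences Newcombe's at 95%, covering counting error only. The rule, the element search and the permutation test were run on simulated data with known answers. That run checked the code and not how well the rule separates regions in these data. Alternatives covered the threshold, the ranking measure, the merging overlap, the element and promoter definitions, the chromosomes and each library.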

Additional observations from a re-analysis of the deposited data

Results flagged for a closer look

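Among 74 groups of 4 library percentiles examined, 5 had 1 library far from the other 3, by Dixon's test at 95%. Chance flags about 1 in 20 groups. At the Galnt4 region AVPV library 3 was low, at percentile 65.9 against 84.7 to 86.3 in the other AVPV libraries. At the Dhx33 promoter arcuate library 1 was high, at 31.5, and at the Capn8 region the same library was high at 4.96, against at most 1.70 in the others. Arcuate library 3 was high at the Ap3s2 promoter, at 82.2 against 61.1 to 64.3. At the Micos10 promoter AVPV library 2 was low, at 49.9 against 62.7 to 64.4. In each of these 5 regions the AVPV percentiles were all above the arcuate ones with the distant library included. Nothing is read from that, because members were selected on these same percentiles. For Galnt4 and Dhx33 it was also a condition for naming them.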

How the results depend on the processing

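The count of 305 members was between 295 and 320 without single libraries, and at least 273 of the 305 remained members each time. Ranking among all peaks of each list gave 159 members, 150 of them among the 305. The promoter, ERE and CpG-island-like shares were not recomputed under that ranking. The labels do not say that replicate numbers mark shared pools. The deviations of same-numbered libraries correlated at 0.0898, -0.0226, 0.0335 and -0.322, against 0.354 for arcuate 4 with AVPV 3 and 0.234 for arcuate 1 with AVPV 4, so the numbers were not taken to pair the libraries. With the replicate block, 173 of the 305 members were higher in AVPV in all 4 numbered pairs. That count comes from the percentiles that chose the members, has no value over all core regions beside it, and nothing is read from it. The differences of the class means stayed at 3.88 points for promoters (exact sign-flip permutation p = 0.375) and -4.79 for the ERE (exact sign-flip permutation p = 0.5), where 0.125 is the smallest possible.

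Against arcuate-higher regions, the promoter gap was 10.5 to 29.9 points and the ERE gap -32.7 to -10.6 without single libraries. Both passed each time by Fisher's exact test, which counts regions as independent. Over libraries, neither class mean differed between the nuclei in any of these rounds (exact permutation p of 0.0857 or more). Ranked by −log10 q-value, the promoter and ERE gaps were 29.2 and -28.8 points, and the CpG-island-like gap rose to 20.2. The ERE gap no longer passed with at most 1 mismatch (-6.83 points) or outside promoters (-8.87), and the CpG-island-like gap ran from -1.07 to 27.7 without single libraries. Against other core regions, the promoter gap turned to 4.44 points at a threshold of 15 and to 0.578 for mean percentiles of 25 to 75, and was -5.72 to 3.03 without single libraries. The ERE gap passed within 50 bp of the summit (7.43 points) and without arcuate library 2 (7.52), and was -0.149 to 7.52 without single libraries. The CpG-island-like gap did not pass at thresholds of 5 (-7.88) and 15 (-5.97) or for mean percentiles of 25 to 75 (-2.05), and was -10.3 to -1.07 without single libraries. The number of motifs that passed was 0 to 4 without single libraries, an alternative chosen after seeing the data. The cause of these changes was not tested. Read depth is unknown, and 4 libraries a nucleus cannot give an exact p under 0.0286.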
